A study of Mus musculus with 12 samples.

Results

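Interferon-stimulated genes were followed as a set of 41 genes in mouse fat, in its stromal vascular fraction (SVF). The SVF holds progenitors, endothelial cells and immune cells and lacks the mature, lipid-laden adipocytes. The members were listed by gene symbol as genes known to be induced by interferons. The rule applies no measured value, but the list was drawn up with earlier results of these data known. All 41 were found among the 24422 genes counted in each library. All 41 also passed the filter on low counts that left 16713 genes for testing. The study asked how Tert, the catalytic subunit of telomerase, acts in obesity when it is expressed from the promoter of p21 (Cdkn1a), a cell cycle inhibitor gene. Poly-A selected RNA was sequenced in 12 libraries, 3 in each of 4 groups.

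Every mouse in the series carried 1 p21 allele modified with mCherry, so the altered p21 locus is common to all groups, controls included. SD mCherry (genotype p21+/mcherry, replicates 1, 2 and 3) was fed the standard diet, and HFD mCherry (the same genotype, replicates 15, 17 and 20) a high-fat diet. HFD Tert (p21+/mcherry-Tert, replicates 25, 26 and 27) received the high-fat diet and expressed Tert from the p21 promoter. HFD TertCi (p21+/mcherry-TertCi, replicates 30, 31 and 33) received the same diet and expressed TertCi, the form without catalytic activity. As the p21 promoter drives the transgene, its expression depends on the cells in which that promoter is active. The design text of the series gives the genotype of the high-fat controls without mCherry, whereas the sample labels name mCherry and are used here. Age, sex, fat depot and the length of the diet are not given in the sources used here, nor is it stated that each library came from a separate animal, so the p-values measure the spread between these libraries only.

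Interferons are secreted proteins that warn cells of infection. Type I interferons such as interferon beta bind the receptor subunits Ifnar1 and Ifnar2, whose kinases Jak1 and Tyk2 activate Stat2. Stat2 and Irf9 belong to a complex that binds the interferon-stimulated response element (ISRE) in the promoters of antiviral genes. Interferon gamma has a receptor of its own, acts instead through the gamma-activated site (GAS), and is a strong inducer of the guanylate-binding proteins and immunity-related GTPases. In adipose tissue, macrophages, endothelial cells and progenitors all respond to interferons.

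Promoter sequences of the members were examined first, because sequence motifs are not part of the rule for members, although many members are textbook examples of genes with such motifs. RefSeq windows of build GRCm38.p6, running from 250 bases before to 50 bases after each start, were matched for 31 of the 41 members, some with more than 1 window. No window was matched for Dhx58, Zbp1, Usp18, Oas2, Mx1, Mx2, Rtp4, Parp9, Parp14 and Iigp1. The ISRE core was searched as GAAANNGAAA and the GAS as TTCNNNGAA, on both strands, and the 2 motifs may overlap. At least 1 window with an ISRE core was found for 18 of the 31 members (58.1%), against 673 of the 17224 genes with a window (3.91%). A GAS was found for 8 of the 31 members (25.8%), against 1597 of all genes (9.27%). All 6 GTPase genes with a window held an ISRE core and 3 of them also held a GAS, and both sensor genes with a window held an ISRE core. A match describes letters in a window and is not evidence of binding.

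The stretches around the ISRE cores of 8 members are shown because they set the same motif side by side in genes that differed in their response, from the ISG15 modifier through the antiviral enzymes to the GTPases. Each is written 5′ to 3′ along the gene's own strand, with the ISRE core in capitals. The capitals read GAAA first where the core lies on that strand and TTTC first where it lies on the other.
Isg15: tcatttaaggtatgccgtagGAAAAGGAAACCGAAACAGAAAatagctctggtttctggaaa
Ifit1: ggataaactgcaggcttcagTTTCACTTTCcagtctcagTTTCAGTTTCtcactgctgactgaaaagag
Oas3: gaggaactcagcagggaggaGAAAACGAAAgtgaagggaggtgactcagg
Rsad2: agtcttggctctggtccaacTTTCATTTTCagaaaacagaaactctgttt
Stat2: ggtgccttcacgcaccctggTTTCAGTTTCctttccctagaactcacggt
Bst2: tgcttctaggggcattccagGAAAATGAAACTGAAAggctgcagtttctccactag
Gbp2: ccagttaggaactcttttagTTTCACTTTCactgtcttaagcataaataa
Igtp: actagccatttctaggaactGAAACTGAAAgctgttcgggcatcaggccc

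In GRCm38 the Isg15 stretch is chr4:156200855-156200916 on the minus strand and holds 3 overlapping cores. The Ifit1 stretch, chr19:34640765-34640833 on the plus strand, holds 2 separate cores, and the Bst2 stretch, chr8:71537567-71537622 on the minus strand, holds 2 that overlap. Those of Oas3 (chr5:120777705-120777754, minus strand), Rsad2 (chr12:26456543-26456592, minus strand), Stat2 (chr10:128270256-128270305, plus strand), Gbp2 (chr3:142620584-142620633, plus strand) and Igtp (chr11:58199502-58199551, plus strand) hold 1 each. All lie upstream of the start in RefSeq's annotation. The core of Igtp, at -34 to -25 from the start, is the nearest to it of those shown, and that of Stat2, at -222 to -213, is the farthest.

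The libraries held 16430330 to 19486965 counts and 16231 to 19147 detected genes, and the members took 0.137% to 0.344% of the counts. Reads of an added feature named mCherry_Tert, whose sequence is not given in the sources used here, were counted in each of the 6 knock-in libraries (33 to 86 counts) and in none of the 6 others, and Tert stood at 6.99 to 16.6 CPM (counts relative to the scaled library size) in the knock-in libraries against 0.463 to 3.97 CPM in the rest. Libraries also differed in make-up. SD mCherry replicate 3 and HFD mCherry replicate 15 had the highest levels of 11 epididymis and epithelium genes (mean log2 CPM 9.16 and 10.2), while the other 10 libraries ran from -1.98 to 5.86. Other libraries also held many such transcripts. The 12 listed genes summed to 59740 and 37230 CPM in those 2 libraries, and to 33460 and 27400 CPM in HFD TertCi replicates 30 and 33. Sums were 18250 CPM in SD mCherry replicate 1, 21060 and 10470 CPM in HFD Tert replicates 25 and 26, and 5.64 to 2016 CPM in the rest. Epididymal transcripts belong to neighbouring male tract tissue and not to the stromal fraction. Markers of macrophages were detected at 12 of 12 genes and of endothelium at 8 of 8. Adipoq, the adipocyte hormone, was at 0.55 to 7.85 CPM, and Siglech, of plasmacytoid dendritic cells, the professional producers of type I interferon, at 0.75 to 2.91 CPM.

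Taken as a set, the members were lowest on the standard diet. Their mean log2 CPM was 4.40 ± 0.192 (SD, n = 3, range 4.22 to 4.60) in SD mCherry, 5.44 ± 0.492 (4.97 to 5.95) in HFD mCherry, 5.08 ± 0.673 (4.66 to 5.85) in HFD Tert and 5.39 ± 0.115 (5.30 to 5.52) in HFD TertCi. On this measure all 3 SD libraries lay below all 9 high-fat libraries, though narrowly (4.60 against 4.66), and the 3 high-fat groups overlapped one another. The separation depended on the measure. As a share of unscaled counts, the members took 0.178% in SD mCherry replicate 1, against 0.168% and 0.167% in HFD Tert replicates 25 and 26. The lowest of the 4 group means was that of SD mCherry for 33 members, of HFD Tert for 5, of HFD mCherry for 3 and of HFD TertCi for none. The highest was that of HFD mCherry for 23 members, of HFD TertCi for 14, of SD mCherry for Irgm1 and Iigp1, and of HFD Tert for Herc6 and Gbp7.

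Single libraries stood out within the high-fat groups. HFD mCherry replicate 17 was the highest of its group for 39 of the 41 members, and HFD Tert replicate 27 likewise for 39 of 41. The same libraries had the highest macrophage level of their groups: mean log2 CPM of the 12 macrophage genes was 6.85, 8.17 and 7.94 in HFD mCherry replicates 15, 17 and 20, and 5.39, 4.91 and 6.81 in HFD Tert replicates 25, 26 and 27. In HFD TertCi, replicate 31 was the highest for 25 members and replicate 30 for 14, with macrophage levels of 6.28 and 5.55. Epididymal transcripts were lowest in HFD Tert replicate 27 (-1.98) and, within HFD TertCi, in replicate 31 (1.599). Within HFD mCherry they were lowest in replicate 20 (0.82) and not in replicate 17 (1.676). The part of these differences in make-up in the level of the members was not tested. In bulk RNA, fewer cells of a type and less RNA per cell cannot be told apart.

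**Figure D1:**
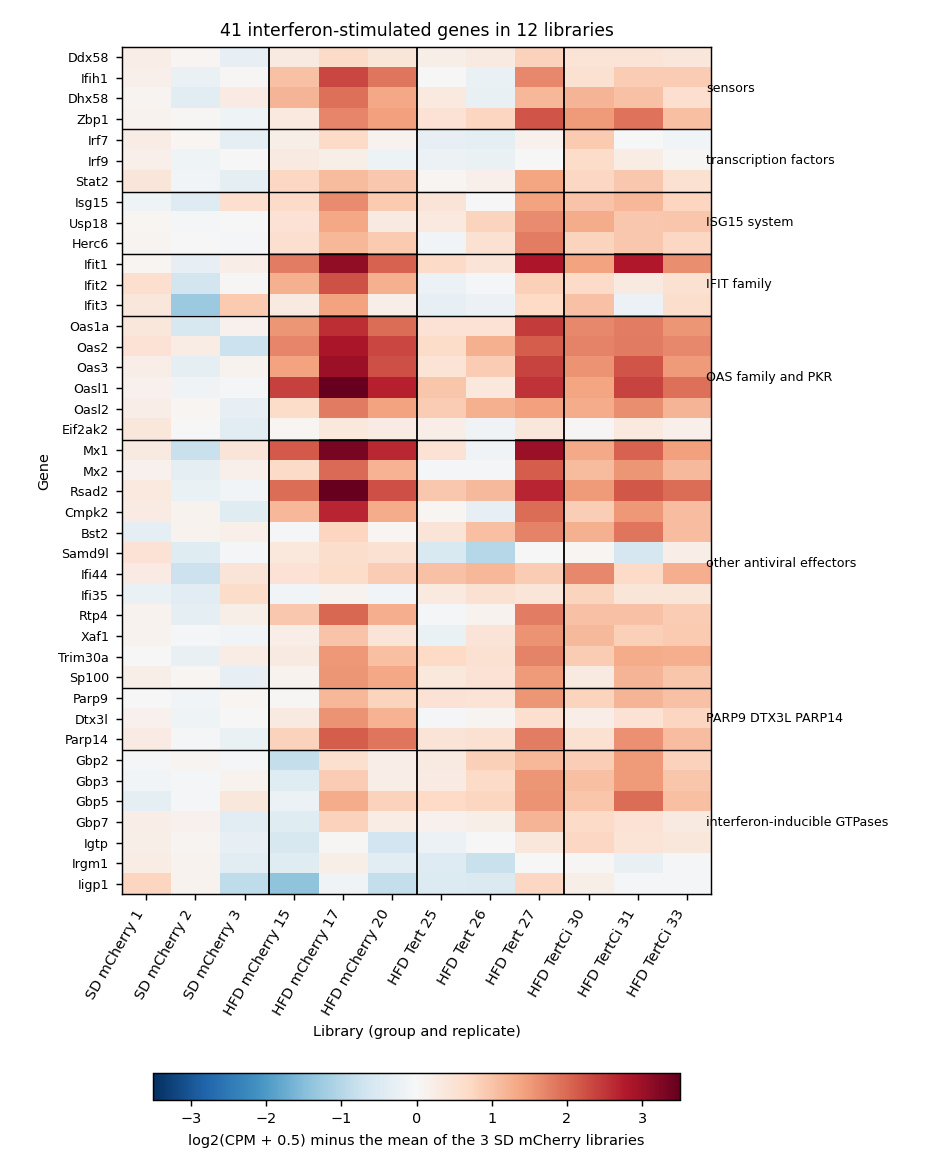
Level of each of the 41 interferon-stimulated genes (vertical axis, grouped by role) in each of the 12 libraries (horizontal axis), as log2(CPM + 0.5) minus the mean of the 3 SD mCherry libraries; red is higher and blue lower than that mean. HFD mCherry replicate 17 and HFD Tert replicate 27 are the reddest columns, each the highest of its group for 39 of 41 genes, and the GTPases at the bottom do not share the red of the OAS family in HFD mCherry.

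The first comparison asked what the high-fat diet did in mice without the Tert transgene. All 3 HFD mCherry libraries lay above all 3 SD mCherry libraries for 5 of the 6 genes in the list of the oligoadenylate synthetase (OAS) family and PKR, for 8 of 12 other antiviral effectors and for none of the 7 interferon-inducible GTPases. Oasl1, Rsad2 and Oas2 had the smallest p-values of the members. No member passed the test (edgeR quasi-likelihood, Benjamini-Hochberg adjusted p under 0.05 over all genes), where 8 of all 16713 genes (0.0479%) did. The smallest adjusted p of a member by edgeR was 0.0659. At an unadjusted p under 0.05, 23 members stood higher and none lower, against 24.1% of all genes in either direction and 14.1% higher. Libraries of the 2 groups did not overlap for 25 members, all higher, against 13.9% of all genes higher and 11.6% lower. A log2 fold change above 0 was found for 37 of 41 members and for 45.9% of all genes, and the median was 0.93 for the members and -0.0753 for all genes.

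The call depended on the tool and on the libraries. DESeq2 on the same genes called 15 members, all higher, where it called 7.92% of all genes higher, and limma-voom called none and no gene at all (0%). The DESeq2 calls fell on 5 of 6 genes of the list of the OAS family and PKR, 2 of 3 Ifit genes, 2 of 4 sensors, 2 of 3 genes of the Parp group, 4 of 12 other effectors and 0 of 7 GTPases. edgeR with the epididymal level as a covariate called 14, all higher (8.16% of all genes). Leaving out HFD mCherry replicate 15, one of the libraries of highest epididymal level, gave 15 calls by edgeR, all higher (8.76% of all genes), and leaving out HFD Tert replicate 27, which is in neither group, gave 14, all higher (3.33%). With library sizes left unscaled, the median fold change of all genes shifted to -0.28 and that of the members to 0.70.

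Sensors detect foreign or misplaced nucleic acid and start interferon production. All 4 were higher in every HFD mCherry library than in every SD library, with log2 fold changes of 0.46 to 1.84. Ifih1, which encodes the long double-stranded RNA sensor MDA5, was at 41.8, 31.4 and 38.4 CPM in SD mCherry replicates 1, 2 and 3 and at 75.5, 187 and 137 CPM in HFD mCherry replicates 15, 17 and 20. Its log2 fold change was 1.84 ± 0.492 (SE, edgeR adjusted p = 0.0829). Dhx58, which encodes LGP2, a regulator of MDA5, was at 5.19, 3.54 and 6.02 CPM against 11.7, 19.8 and 13.1 CPM, a log2 fold change of 1.596 ± 0.418 (edgeR adjusted p = 0.0796).

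The 3 transcription factors had a median log2 fold change of 0.34. Stat2 was at 49.2, 33.7 and 29.0 CPM in SD mCherry and at 60.9, 78.3 and 70.6 CPM in HFD mCherry, without overlap, with a log2 fold change of 0.91 ± 0.346 (edgeR adjusted p = 0.160). Irf7, the factor that amplifies type I interferon transcription, was at 53.3, 46.2 and 35.05 CPM against 51.3, 70.9 and 47.8 CPM. Its groups overlapped, with a log2 fold change of 0.34 ± 0.302 (95% interval -0.33 to 1.01, edgeR adjusted p = 0.493). Irf9, the DNA-binding partner of Stat2, also overlapped (0.12 ± 0.204, 95% interval -0.33 to 0.57).

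The ISG15 system comprises the ubiquitin-like modifier Isg15, its ligase Herc6 and Usp18, the protease that removes it and that also restrains the type I receptor. All 3 genes were higher in HFD mCherry without overlap, with log2 fold changes of 0.84 to 1.08. Isg15 was at 67.7, 55.2 and 114 CPM in SD mCherry and at 120, 239 and 142 CPM in HFD mCherry, a log2 fold change of 1.08 ± 0.409 (edgeR adjusted p = 0.157). SD replicate 3 came close to the lowest HFD library.

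Ifit proteins bind viral RNA and block its translation. Ifit2 was at 28.5, 11.8 and 19.0 CPM in SD mCherry and at 44.7, 88.5 and 44.7 CPM in HFD mCherry, a log2 fold change of 1.59 ± 0.406 (edgeR adjusted p = 0.0761). Its groups did not overlap, and the same held for Ifit1 but not for Ifit3. The value of Ifit3 is uncertain, since 51.2% of the 50-base words in its exons also occur in its copy Ifit3b.

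The list of the OAS family and PKR showed the highest median of the roles, a log2 fold change of 2.30 over 6 genes. OAS enzymes make oligoadenylates that switch on RNase L, an RNA-degrading enzyme. Oasl1, a member without synthetase activity that restrains translation of Irf7, was at 29.8, 24.2 and 26.01 CPM in SD mCherry and at 142, 312 and 179 CPM in HFD mCherry. The lowest high-fat library was thus far above the highest SD library, and the log2 fold change was 2.98 ± 0.547 (edgeR adjusted p = 0.0659, range 9.83e-06 to 0.261 over the alternatives). Oas2 was at 4.38, 3.64 and 1.56 CPM against 10.8, 24.6 and 16.96 CPM (2.45 ± 0.502, edgeR adjusted p = 0.0659). Oas3 was at 1.53, 0.87 and 1.39 CPM against 4.09, 13.5 and 7.76 CPM (2.73 ± 0.642, edgeR adjusted p = 0.0727). Oasl2 was at 19.9, 17.6 and 13.6 CPM against 26.5, 61.0 and 45.5 CPM (1.38 ± 0.300, edgeR adjusted p = 0.0671). None of these 4 genes overlapped between the diets, and HFD mCherry replicate 17 was the highest library for each. Oas1a did not overlap either, but 57.6% of its 50-base words also occur in Oas1g. Eif2ak2, which encodes the RNA-activated kinase PKR, was the exception, with a log2 fold change of 0.22.

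The 12 other antiviral effectors had log2 fold changes of -0.0887 to 2.81, with a median of 1.08, and 8 did not overlap. Rsad2 encodes viperin, which makes a nucleotide that ends viral RNA chains. It was at 53.1, 35.6 and 39.2 CPM in SD mCherry and at 165, 481 and 203 CPM in HFD mCherry, a log2 fold change of 2.73 ± 0.539 (edgeR adjusted p = 0.0659, range 4.76e-05 to 0.261 over the alternatives). Without HFD mCherry replicate 17 its log2 fold change was 2.11. Bst2, the tetherin that holds budding virus at the cell surface, was at 59.6, 80.3 and 84.5 CPM against 72.3, 125 and 77.8 CPM. It overlapped between the diets, with a log2 fold change of 0.29 ± 0.352 (95% interval -0.49 to 1.07, edgeR adjusted p = 0.620). Samd9l, a restrictor of translation, overlapped as well, at 99.8, 52.9 and 67.0 CPM against 92.0, 108 and 103 CPM.

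Parp9, Dtx3l and Parp14 encode a group of ADP-ribosylation factors, Dtx3l being the ubiquitin ligase that pairs with Parp9. Their log2 fold changes were 0.75 to 1.69. Dtx3l was at 22.2, 17.9 and 19.8 CPM in SD mCherry and at 24.8, 60.01 and 46.6 CPM in HFD mCherry, without overlap (1.13 ± 0.314, edgeR adjusted p = 0.0872). Exons of Dtx3l and Parp9 overlap on opposite strands over 458 bases, and whether the counting used strand is not given in the sources used here.

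The 7 interferon-inducible GTPases attack the membranes around intracellular pathogens. None of them was without overlap in either direction and none had an unadjusted p under 0.05. Their median log2 fold change was 0.0916, with 4 genes above 0 and 3 below, and it became -0.17 with library sizes left unscaled and -0.21 without HFD mCherry replicate 17. Gbp2 was at 93.9, 102 and 92.0 CPM in SD mCherry and at 53.8, 141 and 113 CPM in HFD mCherry, so the high-fat libraries lay on both sides of the SD libraries. Igtp was at 43.0, 40.3 and 30.5 CPM against 25.1, 38.7 and 23.5 CPM (-0.38 ± 0.248, 95% interval -0.93 to 0.16). Gbp3 was at 33.8, 34.5 and 39.5 CPM against 26.5, 66.4 and 42.2 CPM.

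**Figure D2:**
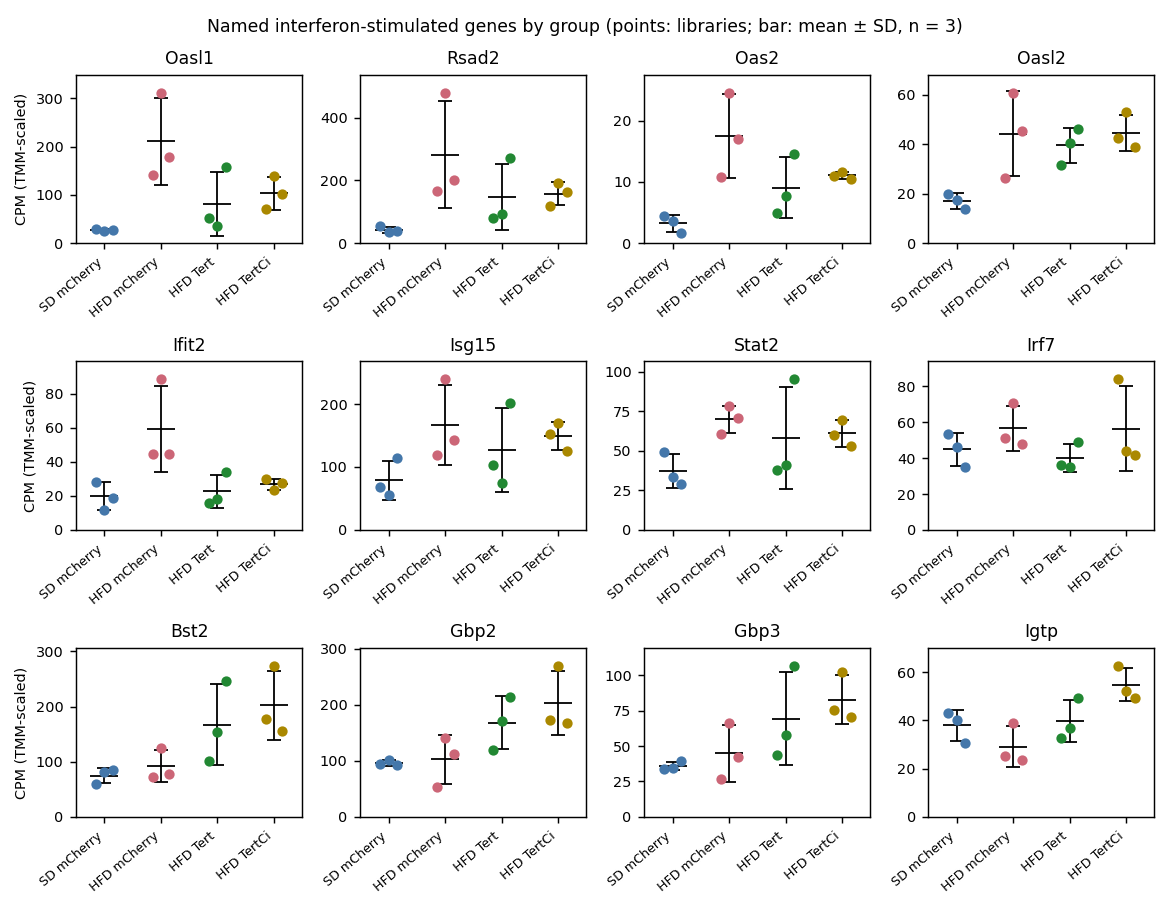
CPM on scaled library sizes (vertical axis, from 0) of 12 named interferon-stimulated genes in the 4 groups (horizontal axis); points are libraries, the long bar is the group mean and the whiskers are 1 SD (n = 3). Oasl1, Rsad2, Oas2 and Ifit2 are highest in HFD mCherry, while Bst2, Gbp2, Gbp3 and Igtp are highest in HFD TertCi.

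Interferon beta itself was measurable. Of 10 interferon genes listed, only Ifnb1 and Ifng passed the filter. Ifnb1 was at 4.63, 3.88 and 0.64 CPM in SD mCherry (91, 80 and 11 counts) and at 10.4, 29.3 and 10.2 CPM in HFD mCherry (188, 488 and 171 counts). Its groups did not overlap, and the log2 fold change was 2.44 ± 0.769 (95% interval 0.75 to 4.14, edgeR adjusted p = 0.110). Replicate 17, the high-fat library with the highest members, also had the most Ifnb1. Within HFD Tert, replicate 27 was likewise the highest for both. Within HFD TertCi the most Ifnb1 (13.6 CPM) was in replicate 33, whose mean log2 CPM of the members (5.30) was the lowest of its group. A link between Ifnb1 and the members was not tested. Ifng had 0 to 12 counts in any library, which is too few to compare, and Ifna1, Ifnl2 and Ifnl3 had 0 counts in all 12 libraries, where a count of 0 allows up to 0.146 to 0.193 CPM for counting error alone (3 counts).

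The wider pathway list held 63 genes, of which 55 were tested. edgeR called none of them for diet, and 22 had an unadjusted p under 0.05, all higher, against 14.1% of all genes higher. The median log2 fold change of the 55 genes was 0.57. Without overlap, 20 were higher and 2 lower, against 13.9% and 11.6% of all genes. Of the receptor and kinase genes, 6 of 9 were higher without overlap. Ifnar1, named after its values were seen, was at 67.4 ± 15.7 CPM in SD mCherry and 132 ± 41.5 CPM in HFD mCherry (SD, n = 3). The 3 genes of smallest p were Trex1, a DNase that clears cytosolic DNA (1.07 ± 0.272, edgeR adjusted p = 0.0757), Daxx, a transcriptional repressor (0.82 ± 0.209, edgeR adjusted p = 0.0761), and Tor3a, an interferon-inducible ATPase (1.08 ± 0.291, edgeR adjusted p = 0.0848).

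Cell type markers differed along the same contrast. The 12 macrophage genes summed to 1172 to 1359 CPM in SD mCherry and 2628 to 6557 CPM in HFD mCherry, and all 12 were higher without overlap, with a median log2 fold change of 2.19. The 8 endothelial genes summed to 689 to 935 CPM against 1087 to 2037 CPM, and the 12 progenitor genes to 3301 to 4642 CPM against 4838 to 14050 CPM. Of 4 neutrophil genes tested, 3 were higher without overlap, against 13.9% of all genes. Among these, Cxcr2 and S100a9 were at low levels in both groups, 0.05 to 0.9 CPM and 0.15 to 1.68 CPM. Of 4 plasmacytoid dendritic cell genes tested, none was without overlap and none had an unadjusted p under 0.05, and Siglech was at 2.39, 2.91 and 0.75 CPM in SD mCherry against 1.71, 1.56 and 1.08 CPM in HFD mCherry. The part of cell make-up in the diet difference of the members was not tested.

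**Figure D3:**
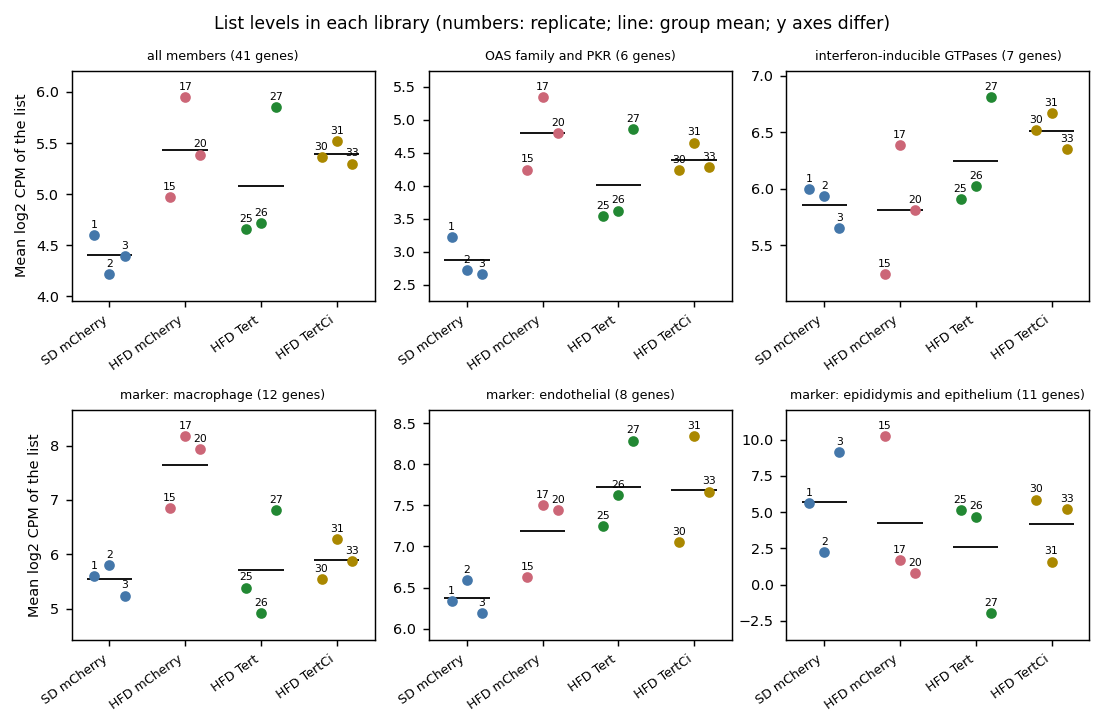
Mean log2 CPM (vertical axis, different in each panel) of all members, 2 member roles and 3 cell type marker lists in each library, by group (horizontal axis); numbers are replicates and lines are group means. The list of the OAS family and PKR is lowest in the SD libraries (2.66 to 3.22), the GTPases are not, and macrophage markers are highest in HFD mCherry (6.85 to 8.17).

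The next comparison set HFD Tert against HFD mCherry, asking what active Tert did on the high-fat diet. Every HFD Tert library lay below every HFD mCherry library for Ifit2, Samd9l and Dhx58, whereas Bst2 and 6 of 7 GTPases had log2 fold changes above 0 with overlapping groups. edgeR called no member, as it called none of the 16713 genes (0%). At an unadjusted p under 0.05, 1 member was higher and 6 were lower, against 6.62% of all genes higher and 9.75% lower. Groups did not overlap for 1 member higher (Ifi35) and 3 lower (Dhx58, Ifit2 and Samd9l), against 9.99% and 11.1% of all genes, so the count of members was near or below the background. Ifi35 was named after its values were seen. DESeq2 called Ifit2 alone, lower (3.17% of all genes lower). edgeR with the epididymal level as a covariate called 5 members, all lower (6.03% of all genes): Ifih1, Ifit2, Oasl1, Dtx3l and Parp14.

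Ifit2 was at 44.7, 88.5 and 44.7 CPM in HFD mCherry and at 16.1, 17.9 and 33.8 CPM in HFD Tert replicates 25, 26 and 27. Every HFD Tert library was below every HFD mCherry library, and the log2 fold change was -1.39 ± 0.404 (95% interval -2.29 to -0.50, edgeR adjusted p = 0.198, range 0.0334 to 0.597 over the alternatives). In SD mCherry the gene was at 19.8 ± 8.34 CPM (n = 3). Samd9l was at 92.0, 108 and 103 CPM in HFD mCherry and at 49.0, 35.3 and 71.8 CPM in HFD Tert (-0.96 ± 0.318, edgeR adjusted p = 0.224).

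Oasl1 was at 52.8, 34.7 and 157 CPM in HFD Tert, and the value of replicate 27 lay inside the HFD mCherry range of 142 to 312 CPM. Its log2 fold change was -1.37 ± 0.516 (edgeR adjusted p = 0.245), and -2.27 without replicate 27. Dhx58 was at 6.24, 3.95 and 11.5 CPM in HFD Tert, all below HFD mCherry (-1.04 ± 0.413, edgeR adjusted p = 0.260). Dtx3l was at 19.1, 21.2 and 30.1 CPM, with replicate 27 above the lowest HFD mCherry library (-0.90 ± 0.312, edgeR adjusted p = 0.229). Rsad2 followed the same layout, at 81.5, 92.0 and 271 CPM (-0.94 ± 0.509, edgeR adjusted p = 0.375).

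Of the 12 other antiviral effectors, 7 had a log2 fold change below 0 and 5 had one above 0, among them Bst2. It was at 72.3, 125 and 77.8 CPM in HFD mCherry and at 101, 154 and 246 CPM in HFD Tert, with overlap at 1 library of each group (0.87 ± 0.354, 95% interval 0.0861 to 1.65, edgeR adjusted p = 0.271). Among the 7 GTPases, 6 had a log2 fold change above 0, with a median of 0.45, and none was without overlap. Their median was 0.17 without HFD Tert replicate 27, with 4 genes above 0. The 6 genes of the list of the OAS family and PKR were all below 0, with a median of -0.79, and the 3 Ifit genes likewise, with a median of -0.70. With unscaled library sizes 1 gene of the first list was above 0.

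The members as a whole had a median of -0.26 in this comparison, against -0.0534 for all genes, and 1 library of either group set its size. It was -0.68 without HFD Tert replicate 27 and 0.0136 without HFD mCherry replicate 17. Isg15 (-0.39 ± 0.405), Irf7 (-0.51 ± 0.303) and Stat2 (-0.27 ± 0.343) overlapped between the groups, with 95% intervals of -1.29 to 0.50, -1.17 to 0.16 and -1.03 to 0.49. Ifnb1 was at 6.48, 2.99 and 13.5 CPM in HFD Tert, overlapping HFD mCherry (-1.12 ± 0.736, edgeR adjusted p = 0.455). Of the 55 pathway genes edgeR called none. An unadjusted p under 0.05 was found for 9, 2 higher and 7 lower, against 6.62% of all genes higher and 9.75% lower.

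Several marker lists differed along this contrast. All 12 macrophage genes had a log2 fold change below 0, with a median of -1.77 and sums of 974 to 2665 CPM, and replicate 27 held the highest sum. Lower without overlap were 6 of the 12, against 11.1% of all genes. Of 12 progenitor genes, 10 were below 0 (median -0.66), and all 8 T and NK cell genes tested were below 0 (median -0.51). Only 1 of these 8 had an unadjusted p under 0.05 by edgeR, and none was called. Apart from Klrb1c, the T and NK cell genes were low, at no more than 7.22 CPM in any library. Klrb1c was at 174 CPM in HFD mCherry replicate 15, a library of high epididymal level, against 1.14 and 1.02 CPM in replicates 17 and 20. Endothelial genes summed to 1597 to 3420 CPM and all 8 had a log2 fold change above 0, with a median of 0.40. Mesothelial genes (median 1.84, 3 of 5 higher without overlap) and adipocyte genes (median 1.15, 5 of 8 higher without overlap) were also above 0 in the median. Of all genes, 9.99% were higher without overlap. The part of these lists in the differences of the members was not tested.

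TertCi was compared with the same HFD mCherry libraries, so that the values of both knock-ins share the chance deviations of these controls. Every HFD TertCi library lay above every HFD mCherry library for Igtp, Gbp2, Gbp3 and Bst2, and below for Ifit2 and Ifih1. edgeR called no member, where it called 2 genes of all (0.0120%). At an unadjusted p under 0.05, 4 members were higher and 2 lower, against 5.76% and 8.92% of all genes. Groups did not overlap for 12 members in either direction, against 21.5% of all genes, and 6 of them were higher, against 9.45%. The higher ones were Bst2, Ifi35, Gbp2, Gbp3, Igtp and Iigp1, and the lower ones Ifih1, Dhx58, Ifit2, Oasl1, Mx1 and Samd9l. Iigp1, Mx1 and Ifi35 were named after their values were seen. DESeq2 called Igtp alone, higher (1.30% of all genes higher), and edgeR with the epididymal covariate called Igtp and Gbp2, both higher (1.18%).

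Igtp, also known as Irgm3, regulates the loading of effector GTPases onto membranes. It was at 25.1, 38.7 and 23.5 CPM in HFD mCherry and at 62.4, 52.3 and 49.5 CPM in HFD TertCi replicates 30, 31 and 33. The groups were well apart, and the log2 fold change was 0.91 ± 0.249 (95% interval 0.36 to 1.46, edgeR adjusted p = 0.197, range 0.0235 to 0.583 over the alternatives). The HFD TertCi libraries were also above all 3 SD mCherry libraries, at 30.5 to 43.0 CPM. Igtp shares 11.8% of its 50-base words with Irgm2, so its level is uncertain to that extent.

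Gbp2 was at 173, 268 and 168 CPM in HFD TertCi, above the HFD mCherry range of 53.8 to 141 CPM (0.99 ± 0.348, edgeR adjusted p = 0.254). Gbp3 was at 75.5, 102 and 70.3 CPM, above 26.5 to 66.4 CPM (0.88 ± 0.375, edgeR adjusted p = 0.313). Both encode guanylate-binding proteins, and the closest libraries of the 2 groups were near each other for Gbp3. All 7 GTPases had a log2 fold change above 0 (0.0959 to 0.99, median 0.74), also with either other scaling. Without HFD mCherry replicate 15, the lowest library for Gbp2, Gbp3 and the GTPases as a set, 5 of 7 were above 0 and the median was 0.49.

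Bst2 was at 177, 273 and 156 CPM in HFD TertCi, above every HFD mCherry library (72.3 to 125 CPM) and every SD library. Its log2 fold change was 1.14 ± 0.356 (95% interval 0.35 to 1.93, edgeR adjusted p = 0.226, range 0.0523 to 0.603 over the alternatives). It was the only effector outside the GTPases with an unadjusted p under 0.05 and a higher level.

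Ifit2 was at 29.9, 23.3 and 27.4 CPM in HFD TertCi, below all HFD mCherry libraries (-1.14 ± 0.402, edgeR adjusted p = 0.254). Ifih1 was at 53.6, 68.6 and 68.2 CPM, below the HFD mCherry range of 75.5 to 187 CPM (-1.07 ± 0.482, edgeR adjusted p = 0.337). In HFD Tert the same sensor was at 37.1, 31.6 and 120 CPM, with replicate 27 inside the HFD mCherry range. The list of the OAS family and PKR had 5 of 6 genes below 0 and a median of -0.52, which was -0.10 without HFD mCherry replicate 17.

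Isg15 (-0.16 ± 0.404), Irf7 (-0.0049 ± 0.302) and Stat2 (-0.20 ± 0.343) overlapped between HFD TertCi and HFD mCherry, with 95% intervals of -1.06 to 0.73, -0.67 to 0.66 and -0.95 to 0.56. The sign of the Irf7 value turned under other scalings, with 0.13 for unscaled library sizes. The median of all members was -0.0841, against -0.0389 for all genes, and 0.19 without HFD mCherry replicate 17. With unscaled library sizes the members' median was 0.0361 and that of all genes 0.0616. Ifnb1 was at 6.94, 9.14 and 13.6 CPM (-0.75 ± 0.730, edgeR adjusted p = 0.662). Of the pathway genes edgeR called none. An unadjusted p under 0.05 was found for 8, 4 in each direction, against 5.76% of all genes higher and 8.92% lower.

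Marker levels again differed along the contrast. The 12 macrophage genes all had a log2 fold change below 0 in HFD TertCi (median -1.81, sums of 1252 to 1893 CPM), and the 8 endothelial genes all had one above 0 (median 0.38, sums of 1427 to 3542 CPM). Of the macrophage genes 11 were lower without overlap, against 2012 of all 16713 genes. Of 12 progenitor genes 10 were below 0 (median -0.84), and edgeR called 1 of them lower, Pdgfra, a growth factor receptor of progenitors, named after its values were seen. Medians were 1.496 for 5 mesothelial genes, 3 of them higher without overlap, and 0.75 for 8 adipocyte genes, with 4 higher and 1 lower without overlap. Of all genes, 9.45% were higher without overlap. HFD TertCi replicate 31 had the highest endothelial level of its group (mean log2 CPM 8.34) and the highest Gbp2, Gbp3 and Bst2, whereas Igtp was highest in replicate 30, which had the lowest endothelial level (7.05). The part of these cell types was not tested.

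**Figure D4:**
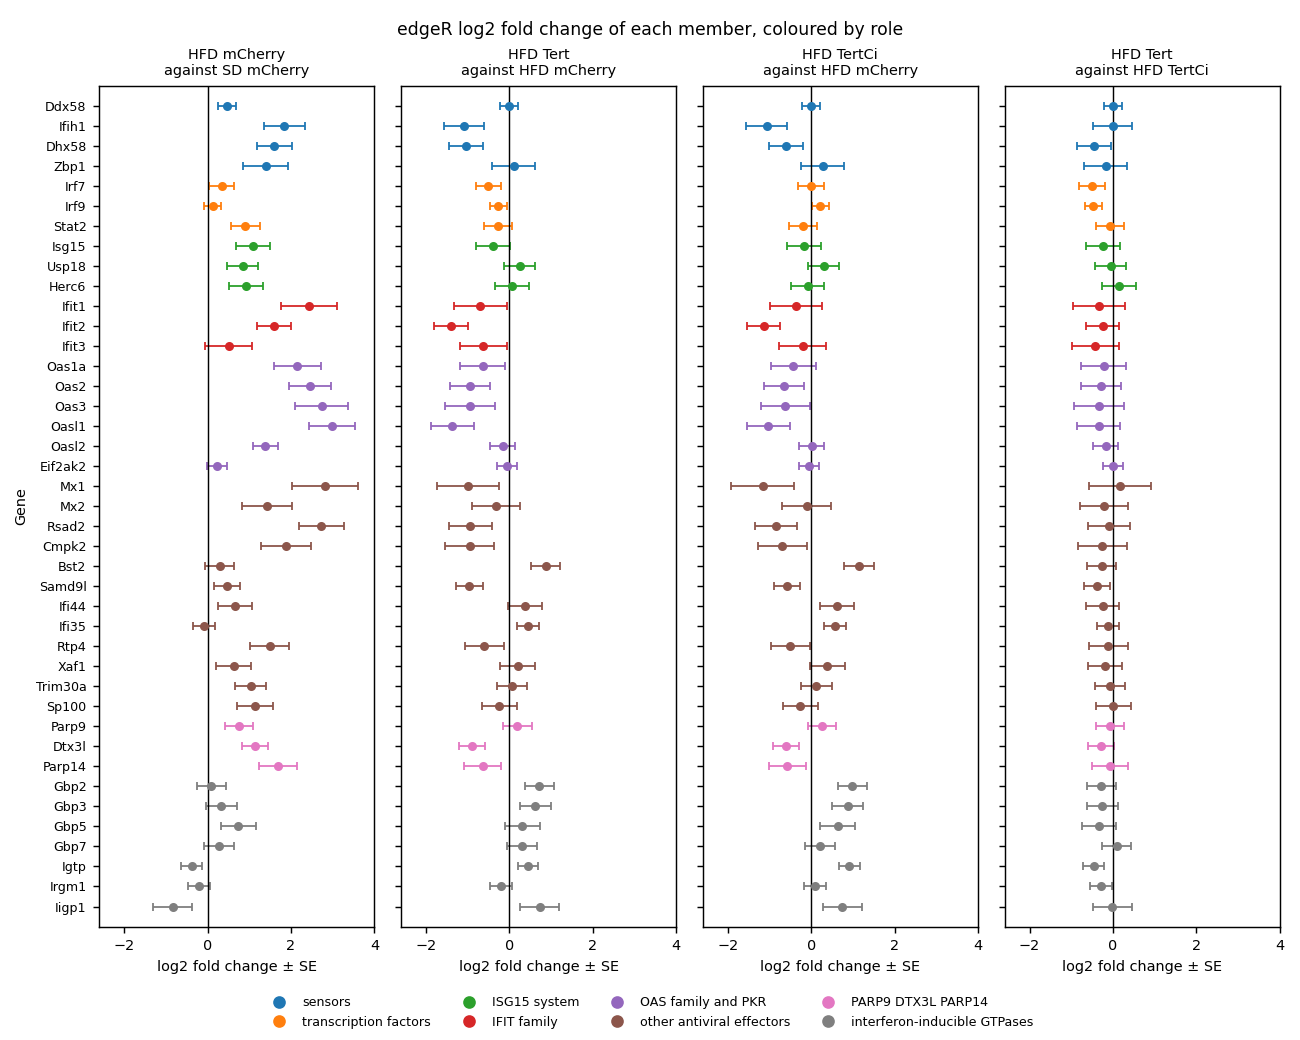
Log2 fold change (horizontal axis) with its standard error from edgeR for each of the 41 members (vertical axis, coloured by role) in the 4 comparisons; the vertical line marks 0. Most members lie right of 0 for diet (37 of 41), and 35 of 41 lie left of 0 for HFD Tert against HFD TertCi. The GTPases lie on both sides of 0 for diet (4 right and 3 left) and right of 0 for HFD TertCi (7 of 7).

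The last comparison set active against inactive Tert on the same diet. Log2 fold changes were below 0 for 35 of 41 members, where 51.7% of all genes were below 0. The median log2 fold change was -0.22 against -0.0112 for all genes, and it was -0.66 without HFD Tert replicate 27, with all 41 members below 0, and 0.0303 without HFD Tert replicate 26. edgeR called no member and no gene at all (0%). Only Irf9, lower, had an unadjusted p under 0.05, against 0.592% of all genes lower, and neither DESeq2 (0.0419% of all genes) nor limma-voom (0%) called a member.

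Irf9 was at 45.4, 44.4 and 52.3 CPM in HFD Tert and at 81.5, 62.6 and 53.5 CPM in HFD TertCi. The groups did not overlap, but the highest HFD Tert and the lowest HFD TertCi library were nearly level, and the log2 fold change was -0.48 ± 0.204 (95% interval -0.93 to -0.0244, edgeR adjusted p = 1). In all, 2 members were lower without overlap and 0 higher, against 2.58% and 2.55% of all genes. The other was Igtp, at 32.7, 36.9 and 49.3 CPM against 62.4, 52.3 and 49.5 CPM (-0.47 ± 0.247, 95% interval -1.01 to 0.0807). With RLE scaling, an alternative way of setting library sizes, neither was without overlap.

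Irf7 was at 36.0, 34.9 and 49.0 CPM in HFD Tert and at 83.9, 44.0 and 41.5 CPM in HFD TertCi, where replicate 30 stood well above the rest (-0.50 ± 0.303, 95% interval -1.17 to 0.17). Without that library the log2 fold change was -0.0986. Bst2 (-0.27 ± 0.352, 95% interval -1.05 to 0.50), Isg15 (-0.23 ± 0.405, -1.12 to 0.66) and Stat2 (-0.0747 ± 0.343, -0.83 to 0.68) overlapped. The Isg15 interval reaches the size of that gene's diet difference (1.08), so these values do not show that the active and inactive forms act alike. Of the 55 pathway genes none was called by edgeR and none had an unadjusted p under 0.05.

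Across all 4 groups at once, the edgeR F-test called no member, where it called 2 of all genes (0.0120%). It gave 20 members an unadjusted p under 0.05, against 20.2% of all genes, and its smallest adjusted p was 0.122, for Oasl1. DESeq2, which used a likelihood-ratio test over the 4 groups instead, called 16 members (13.8% of all genes).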

How the data were processed

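Raw counts per gene were deposited by the authors in a separate table for each of the 12 libraries, per the file headers. Subread, SAMtools, featureCounts 1.6.4 and the mouse build mm10 are named in the submitters' processing notes, while settings, gene models and strand use are not given in the sources used here. Groups and replicate numbers come from the labels.

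Counts were used as deposited, and 0 lines lacked a gene name. Genes were kept by filterByExpr (16713 of 24422), scaled by TMM (factors 0.854 to 1.15) and fitted in 1 edgeR 4.0.16 quasi-likelihood model of all 12 libraries in 4 groups (R 4.3.3, robust, common biological coefficient of variation 0.536, 8 residual degrees of freedom). All tests were 2-sided, adjusted by Benjamini-Hochberg over all genes tested, and a gene was called at an adjusted p-value under 0.05. CPM are relative to TMM-scaled library sizes, and a list's level averages log2 CPM over those of its genes that were tested. Intervals are at 95%. No library duplicated another of its own group (chi-square per degree of freedom between replicates of at least 20.5), and libraries of different groups were not compared in this way.

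Members, role lists, pathway lists and marker lists were chosen with earlier results of these data known. Values by library are given for the 6 members of smallest p in each of the diet, Tert and TertCi comparisons (mean of at least 1 CPM), the 3 of smallest p for Tert against TertCi, and Isg15, Irf7, Stat2 and Bst2. For the pathway they are given for the ligands and the 3 genes of smallest p for diet, and 1 further gene is not reported here.

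Alternatives were DESeq2 1.42.0, limma-voom (limma 3.58.1), RLE or no scaling, other filters, fits on the compared groups only, an epididymal covariate and leaving out each library. On simulated counts for the diet comparison, the model found 81 of 200 genes set to a log2 difference of 2 (40.5%, 16446 genes in the fit) and 161 of 200 set to 4 (80.5%, 16468 genes in the fit). It also called 1 and 10 genes, respectively, that had not been changed. Coordinates are those of GENCODE M21 and RefSeq on GRCm38, the build named mm10 in the notes. In this annotation 7 members share over 5% of their 50-base words with another gene (Oas1a, Ifit3, Igtp, Dtx3l, Parp9, Ifit1 and Trim30a), and their counts are uncertain to that extent.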

Additional observations from a re-analysis of the deposited data

How the results depend on the processing

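No member was called by edgeR with RLE or no scaling, without a filter, with a filter at a mean of 1 CPM, or in fits on the compared groups only, nor by limma-voom. DESeq2 called 15 members for diet, 1 for HFD Tert and 1 for HFD TertCi against HFD mCherry, and none for HFD Tert against HFD TertCi. Its likelihood-ratio test over the 4 groups called 16. edgeR with the epididymal covariate gave 14, 5, 2 and 0 in these comparisons, and 9 in the F-test, the last against 9.06% of all genes. Leaving out 1 library gave 0 to 15 calls for diet, 0 to 4 in the F-test and 0 in the other comparisons. The highest counts came without HFD mCherry replicate 15 (15 for diet and 3 in the F-test, the latter against 3.81% of all genes) and without HFD Tert replicate 27 (14 and 4, the latter against 0.991%). Leaving out both SD mCherry replicate 3 and HFD mCherry replicate 15, an alternative chosen after seeing the data, gave 8 calls for diet, all higher (6.34% of all genes higher), 3 in the F-test (10.7% of all genes) and 0 elsewhere, and the median of the members for diet was then 1.27.

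Counts of members without overlap were also recomputed after seeing the data. For HFD Tert against HFD mCherry, 2 members were higher with RLE (10.4% of all genes) and 4 with no scaling (12.3%). For diet, 25 members were higher with RLE (13.6%) and 21 with no scaling (10.8%), and none lower with either. Without both libraries of highest epididymal level, with 2 libraries left in a group, 33 members were higher (33.6% of all genes) and 2 lower (39.0%) for diet. Lower without overlap were also 8 members for HFD Tert (25.7%) and 15 for HFD TertCi (26.2%) against HFD mCherry.

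Log2 fold changes near 0 turned sign. Irf7 in HFD TertCi against HFD mCherry was 0.0102 by DESeq2, 0.01 with RLE, 0.13 with no scaling, 0.0778 in the compared groups only, 0.0063 with the covariate, and -0.41 to 0.19 over the libraries left out. Over the libraries left out, Isg15 in the same comparison ran from -0.36 to 0.19. In HFD Tert against HFD TertCi the ranges were -0.63 to 0.15 for Stat2, -0.74 to 0.0306 for Isg15 and -0.66 to 0.0046 for Bst2. The cause of these shifts was not tested. On the simulated counts for the diet comparison, in which 200 genes were changed, log2 fold changes of 2 were mostly missed. The share found depends on how many genes change and on their spread. It therefore does not give the share that would be found among the members or in the other comparisons. No paired analysis was possible because no replicate number occurs in more than 1 group.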
